A study of Mus musculus with 6 samples.

Results

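Tulp4, Rnf169, Ankib1, Unc79, Rps6kc1, Slc8a1 and Strbp were examined here as the hosts of some of the most abundant circular RNAs (circRNAs) in mouse tissue labelled as hippocampus. They are 7 of the 3756 named host genes in the series, and they gave 75 of its 11895 circRNAs. All circles that the deposited lists assign to these gene symbols were taken, and the circle with the most reads over the libraries is called the dominant circle of its host. The hosts were chosen by their high back-splice junction counts, so their high level and the large circular share that follows from it are descriptions and were not tested. No threshold set the choice: the 7 dominant circles ranked 3, 4, 5, 6, 9, 10 and 13 among all circles by mean level. Between them stood circles of Fat3, Rims2 and Sv2b and 1 circle on an unplaced scaffold, and above them a circle of Cdr1os and another on that scaffold. At the lower edge, the Strbp circle stood at 3533 junction reads per M (mega) junction reads after dihydrotestosterone (DHT) and 3482 after oil, its vehicle. The next circles below it were hosted by Gm9762, at 3504 after DHT and 3284 after oil, and by Sergef, at 3202 after DHT and 3384 after oil.

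The series measured RNA labelled as hippocampus from male C57BL/6 mice aged 14 months. The DHT group (3 libraries, described as the testosterone group) received DHT under the skin each morning for 14 days, and the oil group (3 libraries) received corn oil on the same schedule. The labels name no genetic change in either group, and how many animals gave each library is not stated, so the spread between libraries may be partly technical. Libraries are numbered within a group for naming only, and values are given in that order as after DHT or after oil.

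The DHT libraries held 55325, 49815 and 43512 junction reads, and the oil libraries 48212, 45803 and 43573, from 143 to 177 M mapped reads per library. Libraries of 1 group differed by more than sampling noise in every pair (chi-square over its degrees of freedom, 2.22 to 3.78), and all 6 were kept as separate samples. The tissue label was checked against marker genes. Of 8 hippocampal markers, 2 (Zbtb20 and Wfs1) had a mean of 5 FPKM or more and 4 had a mean under 1 FPKM, while Prox1 and Grik4 lay between, and Neurod6 was listed at 0 in all libraries but 1. Summed over the 8, they reached 13.4 to 34.8 FPKM after DHT and 15.4 to 31.1 FPKM after oil. Of 9 striatal markers, 8 had a mean of 5 FPKM or more, with Drd1 listed at 0 in all 6 libraries, and their sum was 185 to 349 FPKM after DHT and 266 to 297 FPKM after oil. The data thus go against most of the defining markers of the labelled tissue, whose name is kept here as the labels give it. The part of tissue make-up in the results below was not tested, and in such bulk samples fewer cells of a type and less RNA per cell cannot be told apart.

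A circRNA forms when the donor splice site at the end of an exon joins an acceptor site upstream of it, a reaction called back-splicing, in place of the acceptor of the next exon. The closed ring has no free ends for exonucleases to attack, and such rings accumulate in neurons, where they can reach a large share of a gene's output. DHT is an androgen that binds the androgen receptor and cannot be turned into oestrogen by aromatase. The hosts themselves belong to different pathways. Tulp4 is a tubby-like protein with a SOCS box, the module that links substrates to ubiquitin ligases. Rnf169 is a ubiquitin ligase that binds ubiquitylated chromatin at DNA breaks, and Ankib1 is a ubiquitin ligase of the RBR class. Unc79 is a subunit of the sodium leak channel complex around Nalcn, which sets the resting excitability of neurons, and Slc8a1 is a plasma membrane sodium/calcium exchanger. Rps6kc1 is a kinase-like protein that binds sphingosine kinase and peroxiredoxin, and Strbp binds double-stranded RNA.

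The Tulp4 circle had a feature that bears on its sequence, because an annotated transcription start of the same gene lies inside it. The dominant circle spans 1946 bases of chromosome 17 (6137211 to 6139156, plus strand, GRCm38), which the event lists carry as 1 whole exon. RefSeq (GRCm38.p6) annotates a Tulp4 start at 6138148, within that exon, and another upstream at 6106830. The windows of 250 bases before and 50 bases after these starts are shown because they set the inner start beside the upstream one, with the 50 bases from the annotated start in capitals.
Tulp4 inner start, chr17:6137898-6138197, plus strand: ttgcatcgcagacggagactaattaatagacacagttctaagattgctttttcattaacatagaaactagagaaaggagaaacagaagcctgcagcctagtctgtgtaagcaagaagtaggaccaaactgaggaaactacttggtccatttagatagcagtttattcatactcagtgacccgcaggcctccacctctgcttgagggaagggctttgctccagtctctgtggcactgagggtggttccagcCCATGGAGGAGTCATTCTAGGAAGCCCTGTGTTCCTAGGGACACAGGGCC
Tulp4 upstream start, chr17:6106580-6106879, plus strand: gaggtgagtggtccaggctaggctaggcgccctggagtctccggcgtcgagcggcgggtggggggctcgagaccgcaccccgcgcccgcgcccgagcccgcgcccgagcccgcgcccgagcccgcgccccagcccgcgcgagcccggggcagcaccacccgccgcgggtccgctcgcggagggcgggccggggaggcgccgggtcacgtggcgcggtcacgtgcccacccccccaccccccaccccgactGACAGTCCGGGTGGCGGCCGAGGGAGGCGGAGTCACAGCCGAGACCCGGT
The inner window begins 687 bases after the start of the circle and ends 959 bases before its end, so the whole window can also be part of the ring. Its GC content was 48.0% with 3 CpG dinucleotides, above 32.0% of the 32851 windows in the reference table. The upstream window had a GC content of 81.0% and 46 CpG, above 99.3% of the windows. The core letters of androgen and glucocorticoid receptor elements, AGAACA, and the full palindrome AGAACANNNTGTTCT, in which the core is contained, were searched on both strands. Neither was found in any of the 9 windows that the table holds for the 7 hosts, while 19.0% of all windows held the core and 0.00913% the full palindrome.

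The 7 hosts had between 2 circles (Rnf169) and 18 circles (Strbp) each. Of the 75 circles, 65 were exonic and 10 intronic by the deposited type, 27 appeared in every library and 23 in just 1. With 20 junction reads or more over the libraries, 34 entered the tests, and 41 did not. Together they carried 14293 of 286240 junction reads, or 4.99%, and the 7 dominant circles alone carried 4.11%. The dominant circle held 93.1% of the junction reads of Rnf169, 92.7% of Ankib1, 89.5% of Unc79 and 89.3% of Tulp4. It held 80.5% for Slc8a1, 73.2% for Rps6kc1 and 51.5% for Strbp, so Strbp was the host whose output was most divided. Summed over all circles, Tulp4 ranked 2 and Strbp 3 among named hosts, while the dominant Strbp circle alone stood lowest of the 7.

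**Figure D1:**
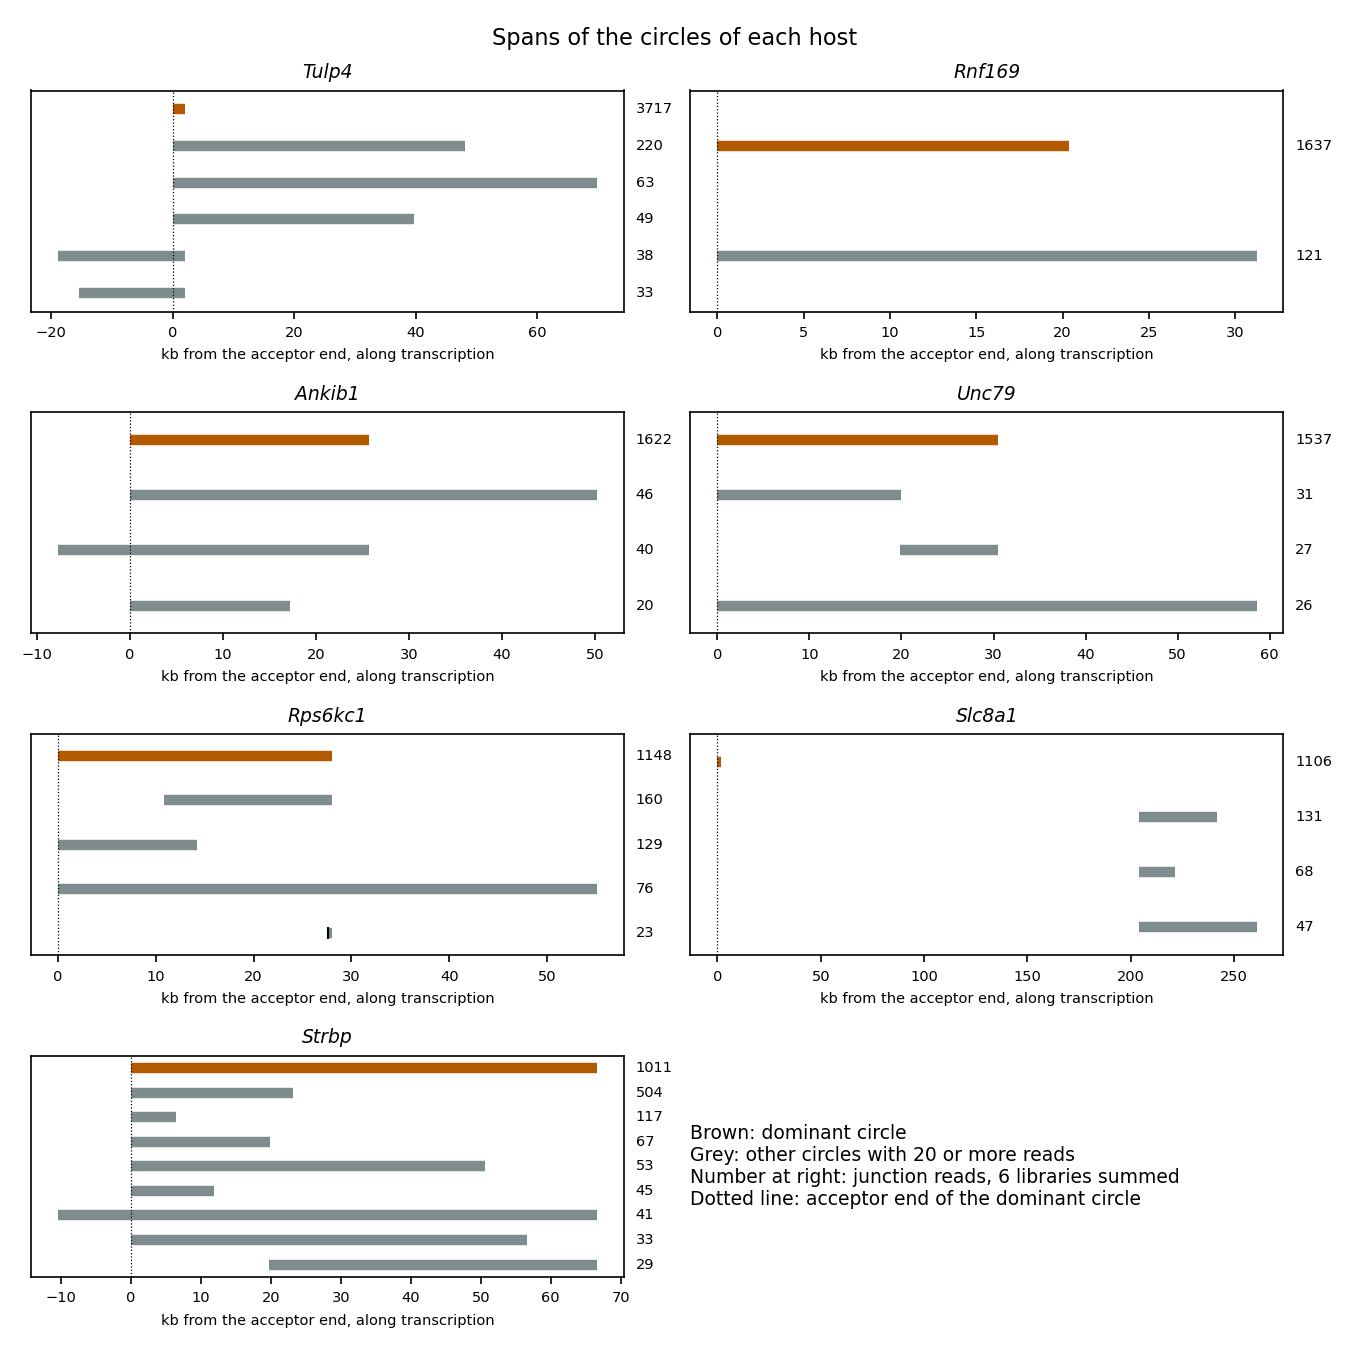
Spans of the circles with 20 or more junction reads, 1 panel per host, in kb from the acceptor end of the dominant circle along the direction of transcription. The bars of Rnf169 and most bars of Strbp start at the same acceptor (dotted line) and differ in where they end, while the Slc8a1 dominant circle lies apart from the other 3.

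The circles of a host tended to share their acceptor with the dominant circle more than their donor. Of 27 further circles with at least 20 reads, 16 used the dominant acceptor, 8 the dominant donor and 3 neither. By reads, 68% of the 2515 reads outside the dominant circles lay at its acceptor and 17.5% at its donor. In Strbp, 89.9% of such reads shared the acceptor and 9.57% the donor, in Tulp4 79.8% and 15.9%, and in Ankib1 68.8% and 31.2%. The 2 ends were more even in Rps6kc1 (50.6% acceptor, 44.4% donor) and in Unc79 (42.8% and 28.3%). Over 154 hosts with at least 300 reads and 2 circles or more, the medians were 34.1% for the acceptor and 7.79% for the donor. All 6 other Slc8a1 circles used neither end of its dominant circle. The 3 of them with 20 reads or more shared 1 acceptor, 202216 bases downstream of the dominant circle, and ended at 3 different donors.

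Splice sites of the circles were also looked up in the assembled linear events of the same libraries. Both ends of a circle matched an exon edge there for 16 of the 75 circles, 1 end for 46 and neither for 13. Neither end of the dominant circles of Rnf169 and Slc8a1 was in the event lists, although both genes had events elsewhere. The lists hold first-exon, last-exon and splicing events, so an exon outside such events offers no edge. Edges were matched by position only, and a missing match does not mean that the linear splice site is absent. An exon skip that removes circular exons can leave its mark in linear transcripts. For Tulp4, the junction that joins the upstream first exon to the exon after the circle (6106996 to 6176829) was listed at 0.449, 0.335 and 0.579 FPKM after DHT, against 0.228, 0.540 and 0.208 FPKM after oil. The groups overlapped. The junction from the same first exon into the circular exon (6106996 to 6137211) was listed far higher in 5 of 6 libraries, at 10.1, 10.8 and 0.0173 FPKM after DHT and 11.4, 9.10 and 10.8 FPKM after oil. The event that holds the whole circular exon between both neighbours was listed at 0 in every library, which in these lists can be a failed estimate. For Rps6kc1, the exons from 190885334 to 190888764, which lie inside its dominant circle, were included at 6.43, 5.04 and 5.88 FPKM after DHT and 6.89, 6.17 and 5.75 FPKM after oil. Their skipping did not exceed 0.0561 FPKM in any library. For Unc79, the exons at the donor end of its circle (103021007 to 103021876) were included at 8.52, 12.2 and 8.10 FPKM after DHT and 6.39, 9.70 and 9.75 FPKM after oil, and their skipping was listed at 0.0566 FPKM in 1 oil library and at 0 in the other 5. That skip starts at 103011292, inside the circle, and so leaves part of the circle in place. For both hosts, whether reads from the ring contributed to the inclusion values was not tested.

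**Figure D2:**
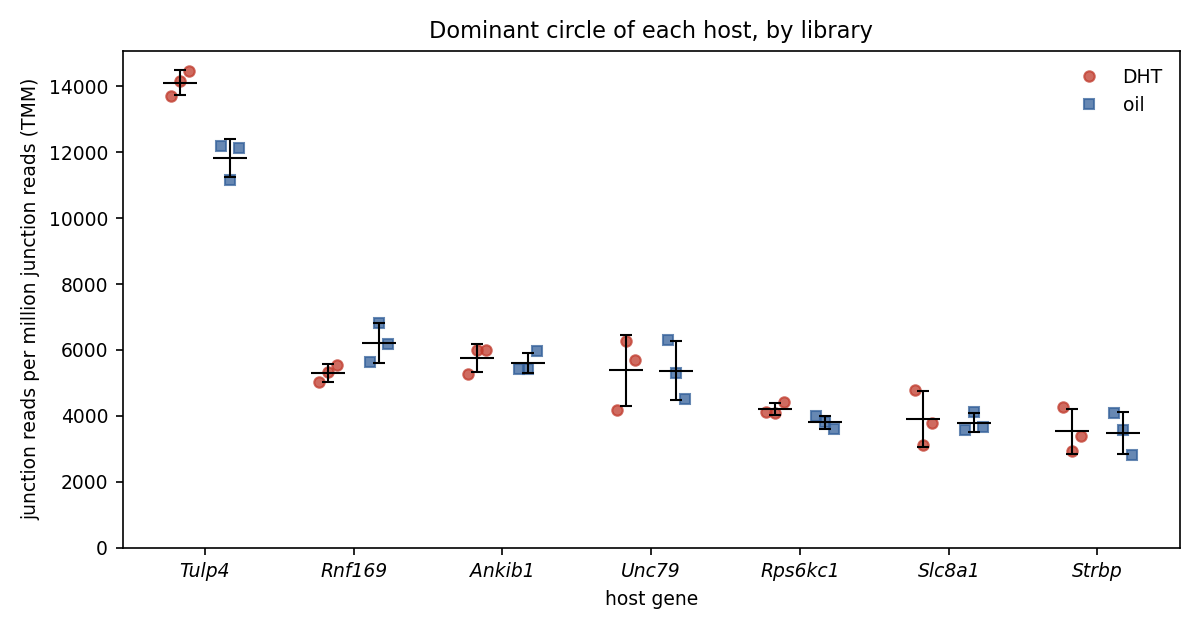
Level of the dominant circle of each host in junction reads per M junction reads after TMM scaling, 3 DHT libraries (circles) left of 3 oil libraries (squares), with mean and SD. The Tulp4 circle stands above the other 6 in all libraries, at 14104 after DHT and 11819 after oil on average.

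Levels are given as junction reads per M junction reads after TMM scaling, which evens out differences in composition between libraries, as mean ± SD (n = 3 per group here and below). In order, the dominant circles stood at 14104 ± 386 after DHT and 11819 ± 567 after oil for Tulp4, at 5298 ± 267 after DHT and 6211 ± 593 after oil for Rnf169, and at 5760 ± 417 after DHT and 5609 ± 308 after oil for Ankib1. Unc79 followed at 5379 ± 1080 after DHT and 5373 ± 886 after oil. Rps6kc1 stood at 4203 ± 180 after DHT and 3809 ± 195 after oil. The levels of Slc8a1 were 3905 ± 838 after DHT and 3797 ± 289 after oil, and those of Strbp 3533 ± 682 after DHT and 3482 ± 641 after oil. Only the step between Tulp4 and Rnf169 separated the ranges over the 6 libraries, with a lowest Tulp4 level of 11165 and a highest Rnf169 level of 6821. At each of the other 5 steps the ranges overlapped, so neighbours below Tulp4 are not resolved by range, although Unc79 was above Rps6kc1 within each of the 6 libraries. Across wider steps, the lowest levels of Rnf169 (5017) and Ankib1 (5279) lay above the highest of Rps6kc1 (4409), Slc8a1 (4794) and Strbp (4271).

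The comparison of DHT with oil used the fit over all circles. In edgeR's quasi-likelihood test with Benjamini-Hochberg adjustment, none of the 34 circles of these hosts passed an adjusted p of 0.05. None of the 2524 circles tested in the series did so either (0%), whereas 79 of them (3.13%) had an unadjusted p under 0.05, of which 1 belonged to these hosts. DESeq2 called 0 as well, with 73 under 0.05 unadjusted. By direction, 22 of the 34 were higher and 12 lower after DHT, with a median log2 fold change of 0.09, while over all circles tested 50.4% were higher and the median was 0.005. The DHT libraries lay above all oil libraries for 5 of the 34 and below them for 2, and over all tested circles for 5.74% and 5.31%. Circles of 1 host share their source, so these 34 are not independent.

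Tulp4 had the largest log2 fold change among the 7 dominant circles. It had 734, 702 and 659 junction reads after DHT, against 594, 514 and 514 after oil. Every DHT library was above every oil library, in reads and in level. The log2 fold change was 0.25 (SE 0.12), with an unadjusted p of 0.0525 and an adjusted p of 0.996 in edgeR. A longer circle from the same acceptor (6137211 to 6176957) had 15, 12 and 9 reads after DHT, against 4, 3 and 6 after oil. Its groups did not overlap, and its log2 fold change was 1.31 (SE 0.56), with an unadjusted p of 0.0326 and an adjusted p of 0.996 in edgeR. It was the circle counted above, the single one of the 34 under 0.05 unadjusted. The most abundant of the longer Tulp4 circles, ending at 6185298, had 56, 23 and 33 reads after DHT and 39, 27 and 42 after oil, and overlapped. So did the circle ending at 6207057, with 10, 11 and 15 reads after DHT and 10, 9 and 8 after oil. The remaining 2 tested Tulp4 circles reach the dominant donor from acceptors upstream of the circle (6118296 and 6121828) and had 38 and 33 reads in all, with overlapping groups.

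Summed over its 10 circles, Tulp4 had 839, 769 and 740 reads after DHT, against 678, 564 and 573 after oil, again without overlap. That is 15864 ± 768 reads per M after DHT and 13172 ± 818 after oil, a log2 fold change of 0.27 (SE 0.09) with an unadjusted p of 0.0117 and an adjusted p of 0.900 in edgeR. None of the 1710 hosts tested passed the adjusted threshold (0%), and 72 (4.21%) had an unadjusted p under 0.05, Tulp4 being the one among these 7, while DESeq2 called 0 hosts and put 71 under 0.05 unadjusted. Among the 7 hosts, 2 (Tulp4 and Rps6kc1) were higher after DHT without overlap, against 6.14% of all hosts tested.

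Rnf169 had only 2 circles, which share an acceptor on chromosome 7 (99955540, minus strand) and end at different donors. The dominant circle (99935162 to 99955540) had 269, 264 and 253 reads after DHT, against 275, 314 and 262 after oil. As a level it was lower in every DHT library than in any oil library, with a log2 fold change of -0.23 (SE 0.15, unadjusted p = 0.151, adjusted p = 0.996, edgeR), or -0.13 without oil library 2. The longer circle (99924296 to 99955540) had 35, 22 and 21 reads after DHT, against 13, 18 and 12 after oil. Here every DHT library was above every oil library, at 519 ± 116 reads per M after DHT and 313 ± 67.7 after oil and a log2 fold change of 0.73 (SE 0.34, unadjusted p = 0.0510, adjusted p = 0.996, edgeR). The longer circle therefore took 11.5%, 7.69% and 7.66% of the host's junction reads after DHT, against 4.51%, 5.42% and 4.38% after oil. The share of the dominant circle was 91.0 ± 2.21% after DHT and 95.2 ± 0.567% after oil, without overlap (exact permutation test, two-sided, p = 0.1, the smallest that 3 against 3 can give, adjusted p = 0.7 over the 7 hosts). A lower share after DHT without overlap was found for 3.25% of 154 hosts. This split of Rnf169 was singled out after its values were seen, and the 2 circles together had 304, 286 and 274 reads after DHT and 288, 332 and 274 after oil, with overlapping groups.

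Rps6kc1 was higher after DHT without overlap, by a small margin. Its dominant circle (chromosome 1, 190871592 to 190899571) had 221, 202 and 201 reads after DHT, against 195, 176 and 153 after oil. The log2 fold change was 0.14 (SE 0.16, unadjusted p = 0.386, adjusted p = 0.996, edgeR). All 14 circles of the host summed to 323, 278 and 263 reads after DHT, against 245, 241 and 219 after oil, or 5822 ± 224 reads per M after DHT and 5122 ± 121 after oil (log2 fold change 0.18, SE 0.12). Smaller rings inside the dominant circle were listed too, which share the stretch from 190885334 to 190888764. The one at the dominant acceptor (190885334 to 190899571) had 129 reads in all, with overlapping groups. The one at the dominant donor (190871592 to 190888764) had 160, also with overlapping groups. A circle of 360 bases (190871592 to 190871951), the shortest with 20 reads or more, had 23 reads.

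Ankib1, Unc79, Slc8a1 and Strbp had dominant circles whose groups overlapped. The Ankib1 circle (chromosome 5, 3747021 to 3772787) had 283, 298 and 273 reads after DHT, against 265, 250 and 253 after oil. The raw reads did not overlap but the levels did, and DHT libraries 1 and 2 were the deepest of the 6. The Unc79 circle (chromosome 12, 102991350 to 103021876) had 224, 311 and 259 reads after DHT, against 307, 244 and 192 after oil. Its spread within a group was wider than any gap between groups, with a log2 fold change of 0.00 (SE 0.19, adjusted p = 1, edgeR). The Slc8a1 circle (chromosome 17, 81647809 to 81649638) had 257, 155 and 173 reads after DHT, against 175, 190 and 156 after oil. DHT library 1 was the high one, and it was also the deepest library. The Strbp circle (chromosome 2, 37580673 to 37647285) had 229, 145 and 155 reads after DHT, against 199, 164 and 119 after oil. Library 1 of each group was the high one, and the log2 fold change was 0.02 (SE 0.20).

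Smaller circles of these hosts differed without overlap in both directions. The second Strbp circle (37624173 to 37647285), which shares the dominant acceptor, had 94, 79 and 64 reads after DHT, against 89, 93 and 85 after oil. Relative to depth it was lower in every DHT library, at 1584 ± 175 reads per M after DHT and 1949 ± 109 after oil (log2 fold change -0.30, SE 0.20, unadjusted p = 0.156, adjusted p = 0.996, edgeR). An Slc8a1 circle of the downstream cluster (81388810 to 81445593) had 8, 16 and 7 reads after DHT, against 4, 6 and 6 after oil, so all DHT libraries were above all oil libraries at a log2 fold change of 0.82 (SE 0.58), which was 0.36 without DHT library 2. The most abundant circle of that cluster (81408067 to 81445593) had 38, 19 and 27 reads after DHT, against 20, 19 and 8 after oil, and the groups overlapped at a log2 fold change of 0.72 (SE 0.38), which was 0.45 without oil library 3. Among Ankib1 and Unc79 circles with fewer reads, the lowest total tested was 20 and the highest 46, and no group stood clear of the other.

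The deposited lists also count linear reads at each circle, which were not used to choose the hosts. The dominant circles had a mean of 197 (Ankib1) to 599 (Slc8a1) linear reads over the libraries, against a median of 222 over the 1581 circles listed everywhere. Between 44.1% (Ankib1) and 84.6% (Slc8a1) of those circles had fewer linear reads, so none of the 7 stood at the top of the linear counts. The circular share, junction reads over junction plus linear reads, was highest for Tulp4, at 62.5%, 61.6% and 62.4% after DHT and 63.2%, 56.1% and 56.9% after oil. In library 1 of the DHT group the 95% Wilson interval of that share was 59.7% to 65.2%, which covers counting error only. The mean share of the Ankib1 circle was 58.9 ± 2.45% after DHT and 56.8 ± 2.20% after oil. Unc79 and Rnf169 followed, with 46.3 ± 6.32% after DHT and 44.6 ± 7.81% after oil for Unc79, and 43.5 ± 1.56% after DHT and 47.3 ± 0.987% after oil for Rnf169. Below them the share was 38.2 ± 1.83% after DHT and 38.5 ± 2.38% after oil for Rps6kc1, and 35.2 ± 4.89% after DHT and 32.3 ± 6.65% after oil for Strbp. Slc8a1 had the lowest share, 24.2 ± 3.09% after DHT and 22.6 ± 1.95% after oil. The median over the 1581 circles was 5.04%, and the high shares follow in part from the choice by junction reads.

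**Figure D3:**
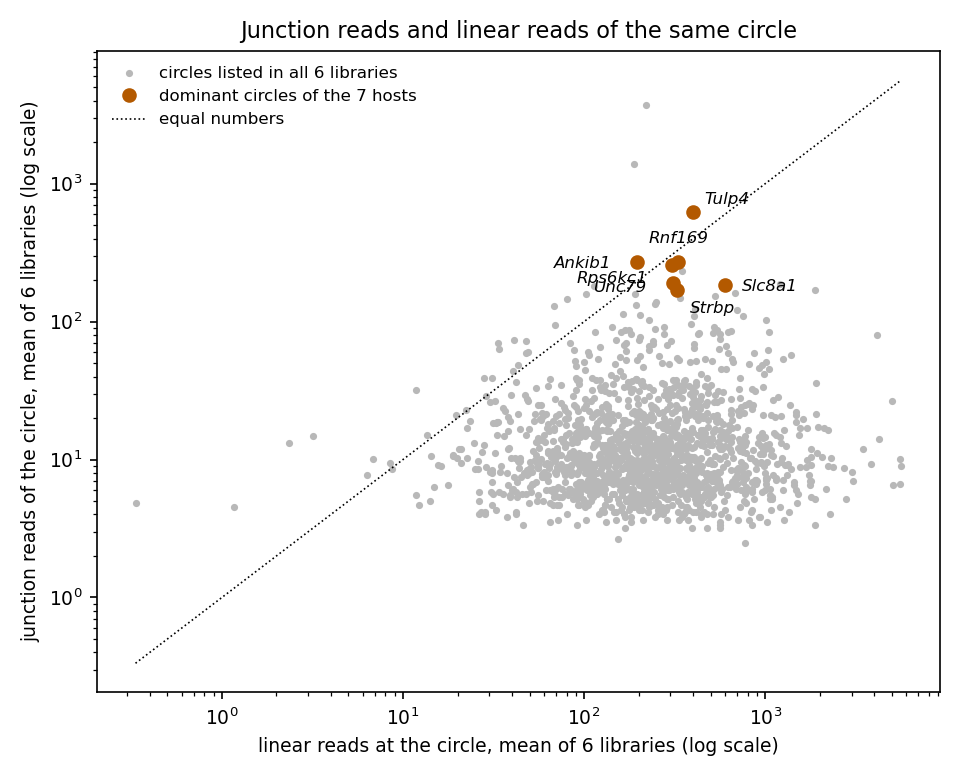
Mean junction reads against mean linear reads over the 6 libraries for the 1581 circles listed in all of them, both axes logarithmic, with the dominant circles of the 7 hosts marked. Tulp4 and Ankib1 lie above the line of equal numbers, as do 31 of the 1581 in all, and the 7 lie inside the range of linear reads of the other circles.

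Between DHT and oil, the circular share separated the groups for 1 of the 7 hosts, Rnf169. Its share was 41.7%, 44.4% and 44.4% after DHT, against 48.2%, 47.5% and 46.3% after oil. The difference was -3.83 percentage points (exact permutation test, two-sided, p = 0.1, the smallest possible, adjusted p = 0.7 over the 7 hosts). Over the 1581 circles 4.24% were lower after DHT without overlap and 9.99% did not overlap in either direction. The separation was lost when the share was taken over both Rnf169 circles (difference -1.45 points, exact permutation p = 0.3). With all circles of each host counted, Slc8a1 was the host whose groups separated instead, at a difference of 1.43 points (exact permutation p = 0.1, adjusted p = 0.7). Linear reads entered that sum only where a library lists the circle. An Slc8a1 circle with 6 junction reads in DHT library 3 and 2 in oil library 2 added 648 and 823 linear reads there, and none elsewhere. The sums thus cover different circles in different libraries, and no change of share can be read from that separation. The Tulp4 share overlapped, because oil library 1 was as high as the DHT libraries (difference 3.46 points, exact permutation p = 0.4). The difference was 5.70 points without that library and 2.13 points without oil library 2. Linear reads at the dominant Tulp4 circle were 440, 437 and 397 after DHT, against 346, 403 and 389 after oil, a log2 fold change of 0.09 (SE 0.09). At the Rnf169 circle they were 376, 330 and 317 after DHT and 295, 347 and 304 after oil, at a log2 fold change of 0.04 (SE 0.10). The widest shift of linear reads was at the Rps6kc1 circle, with 385, 329 and 300 reads after DHT and 278, 303 and 254 after oil (log2 fold change 0.20, SE 0.10, unadjusted p = 0.0534, adjusted p = 0.433, edgeR). None of the 27 circles of these hosts that are listed everywhere passed the adjusted threshold for linear reads in edgeR, against 14 of 1581 in the series (0.886%). Of the 27, 0 had an unadjusted p under 0.05 in edgeR, against 187 of the 1581. By direction 12 of the 27 were higher and 15 lower, within log2 fold changes of -0.17 and 0.20, and 3 were lower after DHT without overlap (8.79% of all).

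Gene levels came from FPKM, which is read density per length and per mapped read, as the larger of the summed first-exon and summed last-exon events of a gene. Strbp averaged 37.4 ± 4.33 FPKM after DHT and 35.4 ± 1.03 after oil, Tulp4 31.6 ± 8.91 after DHT and 34.2 ± 2.84 after oil, and Slc8a1 26.7 ± 9.06 after DHT and 23.9 ± 10.6 after oil. The other 4 lay lower. Unc79 averaged 9.54 ± 2.69 FPKM after DHT and 8.49 ± 2.53 after oil, and Rps6kc1 6.11 ± 0.585 after DHT and 6.51 ± 1.24 after oil. Ankib1 averaged 5.22 ± 1.53 FPKM after DHT and 5.51 ± 0.800 after oil, and Rnf169 4.92 ± 0.334 after DHT and 4.92 ± 1.01 after oil. The order by gene level thus differed from that by circle level, in which Rnf169 and Ankib1 came next to Tulp4. No host passed the test: the log2 fold changes on log2(FPKM + 0.5) ran from -0.15 (Tulp4, SE 0.22) to 0.20 (Slc8a1, SE 0.35), all groups overlapped, and adjusted p was 0.872 or more (limma, with 0 of the 7 under 0.05 unadjusted). In the series, 2 of 11368 genes passed (0.0176%) and 834 had an unadjusted p under 0.05 (7.34%).

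**Figure D4:**
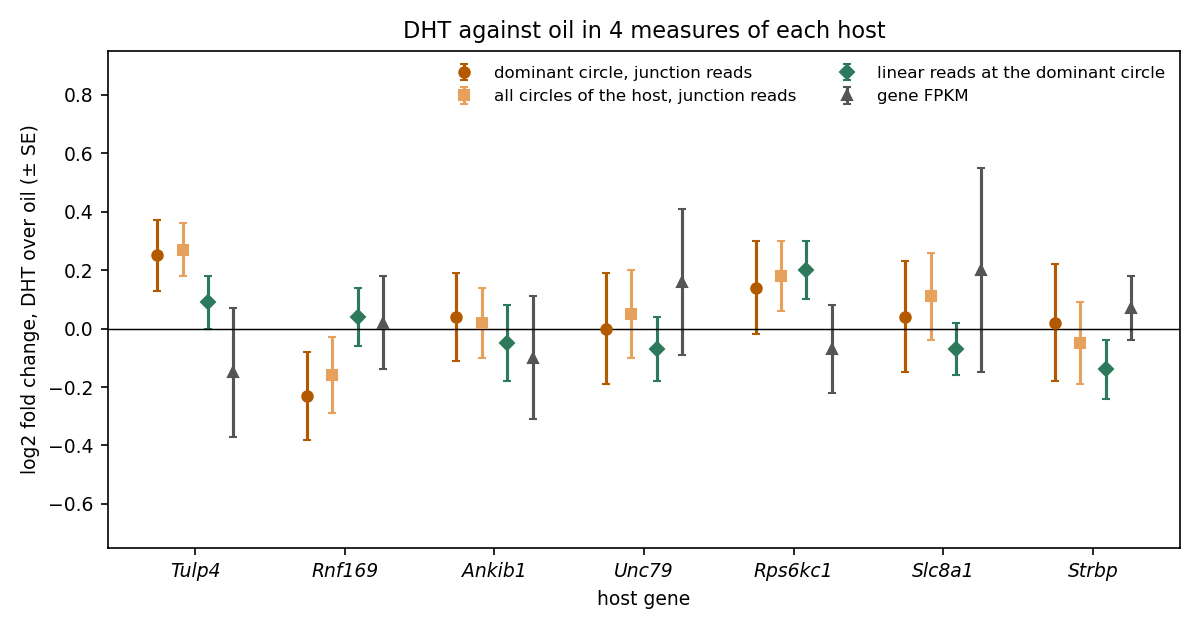
log2 fold change of DHT over oil with its SE for 4 measures of each host: dominant circle, all circles, linear reads at the dominant circle (edgeR) and gene FPKM (limma). The circle measures of Tulp4 lie above 0 (0.25 and 0.27) while its gene FPKM lies below 0 (-0.15, SE 0.22), and no value passed an adjusted p of 0.05. Without DHT library 3 that FPKM value turned to 0.10.

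Some gene values rest on one end of the transcript. For Slc8a1 the first-exon sum did not exceed 0.188 FPKM in any library, while the last-exon sum was 21.9, 21.0 and 37.2 FPKM after DHT and 15, 35.7 and 20.9 after oil. First exons upstream of its dominant circle were in the event lists, but at or near 0. For Tulp4 the reverse held: last-exon events were listed at 0 except for 0.132 FPKM in oil library 3, and the gene value came from 8 first exons. The Unc79 and Strbp values came from first exons too. The last-exon sum of Unc79 was 0.0264, 0.0230 and 0.0268 FPKM after DHT and 0.0234, 0.0266 and 1.74 after oil, and that of Strbp 0.281, 0.192 and 4.50 after DHT and 0.0559, 5.35 and 0.0599 after oil. For Rnf169, Ankib1 and Rps6kc1 both ends were listed at 2.70 FPKM or more in every library.

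One of those Tulp4 first exons is the inner one whose promoter window is printed above. It spans 6138148 to 6139156, lies inside the dominant circle and ends at the donor of that circle. It was listed at 12, 10.7 and 13.7 FPKM after DHT, against 12, 13.0 and 11.5 after oil, so the groups overlapped around a shared level. The upstream first exon with the highest mean level (6106858 to 6106996) had 14.0, 18.3 and 0.772 FPKM after DHT, against 13.2, 14.5 and 16.1 after oil. DHT library 3 was far below the other 5 there, and it was also the library with the lowest Tulp4 gene value, at 21.4 FPKM. Without the inner exon, the Tulp4 value was 19.5 ± 10.4 FPKM after DHT and 22.1 ± 2.09 after oil. Whether reads from the ring contributed to the FPKM of the inner exon, which shares all its bases with it, was not tested. Among 1497 exonic circles listed in all libraries, 6.95% contained a listed first exon that ends at the circle's donor, 1.60% one with a mean of at least 1 FPKM and 0.534% one with at least 5 FPKM.

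**Figure D5:**
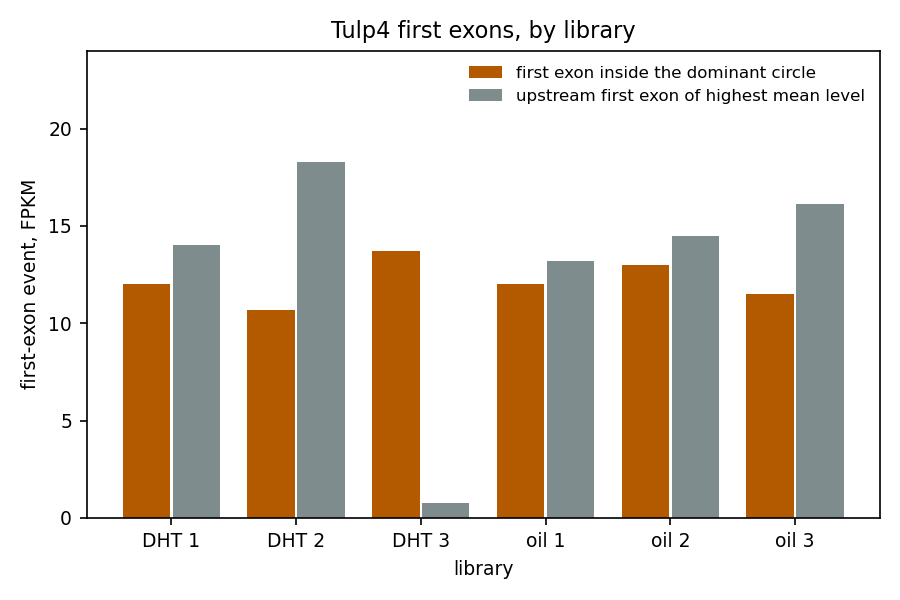
FPKM of the Tulp4 first exon that lies inside the dominant circle and of the upstream first exon with the highest mean level, DHT libraries left of oil libraries. The inner exon stays between 10.7 and 13.7 FPKM, and the upstream exon drops to 0.772 FPKM in DHT library 3.

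Genes that work with these hosts, or belong to their families, were listed by function. Of 36 such genes, 30 were matched in the event lists and 27 were high enough to be tested. None passed an adjusted p of 0.05 in limma and 3 had an unadjusted p under 0.05. In direction, 20 were higher and 7 lower after DHT, and the median log2 fold change was 0.10. Over all genes tested 63.6% were higher and the median was 0.07, so the lean of the list was close to that of all genes. The DHT libraries lay above all oil libraries for 4 of the 27 (12% of all genes tested). The clearest of these was Zfr, an RNA-binding protein with the same DZF domain as Strbp, at 23.6, 28.1 and 31.6 FPKM after DHT, against 20.9, 19.0 and 17.2 after oil (log2 fold change 0.53, SE 0.14, unadjusted p = 0.00657, adjusted p = 0.652, limma). The others were Arih2, an RBR ligase like Ankib1 (3.65 ± 0.295 FPKM after DHT and 2.77 ± 0.102 after oil), the exchanger Slc8a2 (22.2 ± 2.99 after DHT and 17.3 ± 0.579 after oil) and the kinase Rps6kb1 (4.63 ± 0.804 after DHT and 3.67 ± 0.338 after oil). Nalcn, the channel that Unc79 serves, averaged 8.10 ± 1.55 FPKM after DHT and 8.03 ± 1.44 after oil, and its other subunit Unc80 averaged 21.1 ± 2.27 FPKM after DHT and 19.7 ± 2.06 after oil. Rnf168, the ligase that writes the chromatin mark bound by Rnf169, averaged 2.68 ± 0.126 FPKM after DHT and 2.82 ± 0.0692 after oil. Tulp1 and Tulp2, relatives of Tulp4 known from retina and testis, were listed at 0 in every library.

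Circles of these genes were counted too. Arih1 had 243 junction reads over the libraries, Nalcn 214 and Slc8a3, a further sodium/calcium exchanger, 159. The 7 hosts had 1374 to 4163, but they were chosen for high counts, so that gap follows from the choice. Their relatives Tub and Zfr2 had none listed. For the 9 with enough reads to be tested, log2 fold changes of the summed circles ran from -0.65 (Zfr) to 1.54 (Unc80), with Cul9 next below Unc80 at 0.32, and none passed the adjusted threshold in edgeR. Unc80, with 55 reads in all, stood at 278 reads per M after DHT and 94 after oil (SE of the log2 fold change 0.68, unadjusted p = 0.0334, adjusted p = 0.999, edgeR). Its unadjusted p was 0.205 without DHT library 1, and its dominant circle alone gave a log2 fold change of 2.38 with an unadjusted p of 0.0788 in edgeR.

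The pattern of host circle level over the 6 libraries was set, for each host, against the 159 other hosts with at least 300 reads. The measure was the root mean square of the differences in log2 level after each host's mean was subtracted. The host most like Tulp4 was Rps6kc1, at a root mean square of 0.0899 log2 units, and both are higher in all DHT libraries. Rps6kc1 itself was most like Dennd1b (0.0342). Strbp was most like Slc8a1 (0.105), Slc8a1 like Rere (0.0910), Rnf169 like Tasp1 (0.0545), Ankib1 like Tmeff1 (0.0873) and Unc79 like Dtnb (0.0680), where the medians over all compared hosts were 0.220 to 0.294. The 6 libraries and their depth are shared by all hosts, and the nearest of 159 is small by selection.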

How the data were processed

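The authors deposited, for each circRNA, its count of back-splice junction reads and a count of linear reads at the locus. A library lists a circRNA from 2 reads up, so those absent from it were taken as 0 and may hold 1 read. For the counting of linear reads, the method is not stated in the sources used here. The same lists hold a score, SRPBM (junction reads per giga mapped reads, rounded down by the authors according to the values), used only to work out mapped reads. FPKM values were deposited by the authors per first-exon, last-exon and splicing event of assembled loci, per the file headers. The submitters' processing notes name bcl2fastq 2.17.1.14, cutadapt, HISAT2 2.0.1, BWA and the build mm9. All 75 circles of these hosts lay within the GRCm38.p6 bounds of their genes, so coordinates are given as GRCm38.

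The count tests used edgeR 4.0.16 by quasi-likelihood, with the total of junction or linear reads as library size and TMM factors. DESeq2 1.42.0 was an alternative. Tests of junction reads required at least 20 of them over the 6 libraries. Linear reads were tested at the 1581 circles listed in all 6 libraries, without that minimum. Gene values, the larger of first-exon and last-exon sums, entered limma 3.58.1 with a trend as log2(FPKM + 0.5) where their mean reached 0.5 FPKM, a scale that understates changes of low genes. Of 32348 gene identifiers, 99.7% matched a symbol. A value of exactly 0 FPKM may stand for an estimate that failed. Overlapping and antisense genes cannot be told apart. All fits covered the whole series, with Benjamini-Hochberg adjustment (threshold 0.05), and were tested on simulated data. For shares, scipy 1.17.1 gave exact permutation tests, two-sided. Intervals and depth cover counting error only. Groups came from the treatment labels. Members, partner genes and markers were chosen with earlier results of these data known. Circles with at least 20 reads, the circles of neighbouring rank, the most alike hosts and the listed partners could be named. The software was matplotlib 3.10.9, numpy 2.4.6, pandas 2.3.3, Python 3.11.15 and R 4.3.3. Alternatives were other normalizations, filters, pseudocounts, event sums and leaving out each library. Library size from mapped reads, Tulp4 without its inner exon, and the left-out libraries for the Rnf169 split were chosen after seeing the data.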

Additional observations from a re-analysis of the deposited data

How the results depend on the processing

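Of 472 alternative values for 46 single results, 433 kept the direction and the call and 39 reversed a direction, all of uncalled values. No circle, host or gene of the 7 passed an adjusted p of 0.05 under any setting (0 calls). The dominant circles and the summed circles of Tulp4, Rnf169 and Rps6kc1 kept their direction under all settings run. So did the Tulp4 circle ending at 6176957, the longer Rnf169 circle, the Rnf169 circular share and the 4 partner genes without overlap. The directions of the other Tulp4 and Rps6kc1 circles were not followed. Some series counts moved. With no filter on low counts, 5 circRNAs and 2 hosts passed, and with at least 60 reads 1 host passed. DESeq2 called 23 linear loci. For FPKM, a pseudocount of 0.1 called 1 gene, first-exon sums alone 0 and last-exon sums alone 0.

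Some directions also reversed outside left-out libraries. With the dominant circle only, host circles changed by -0.00241 (Unc79) and 0.02 (Strbp, log2), and with mapped reads as library size, chosen after seeing the data, by 0.00078 (Strbp). Centring libraries on their median gave -0.05 for Rnf169 FPKM. The share over all circles of a host differed by -0.69 points (Unc79) and by -1.14 points (Strbp, against 2.91 at its dominant circle). That share sums linear reads over the circles that a library lists, which differ between libraries. In Strbp, a circle of 5 junction reads listed in DHT library 1 alone added 1531 linear reads. Its sign is therefore not comparable with that at the dominant circle. The cause of the reversals was not tested.

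Leaving out each library in turn gave 0 to 1 called circRNAs (1 without DHT library 2), 5 to 19 linear loci and 0 to 4 genes. Linear calls fell to 7 without oil library 1 or 2 and to 5 without oil library 3. Gene calls were 0 without DHT library 1 or 3 or oil library 1 or 2, and 4 without DHT library 2. Log2 fold changes of dominant circles ranged over -0.13 to 0.16 (Unc79), -0.13 to 0.18 (Slc8a1) and -0.14 to 0.17 (Strbp). Those of host circles ranged over -0.04 to 0.06 (Ankib1), -0.05 to 0.17 (Unc79), -0.03 to 0.22 (Slc8a1) and -0.18 to 0.06 (Strbp). Linear reads ranged over -0.000639 to 0.15 (Tulp4), -0.04 to 0.13 (Rnf169) and -0.13 to 0.05 (Unc79). Gene FPKM ranged over -0.30 to 0.10 (Tulp4), -0.14 to 0.13 (Rnf169), -0.30 to 0.08 (Ankib1), -0.05 to 0.38 (Unc79), -0.20 to 0.06 (Rps6kc1) and -0.08 to 0.53 (Slc8a1). Circular shares ranged over -2.69 to 5.30 points (Unc79), -1.27 to 1.04 (Rps6kc1) and -0.26 to 6.37 (Strbp). The Tulp4 FPKM turned positive without DHT library 3. The Tulp4 host circles stayed within 0.22 to 0.29, and the Rnf169 dominant share within -4.83 to -2.91 points.

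No paired analysis was possible because the labels give the groups no shared replicate numbers. Libraries of 3 per group limit exact tests to p = 0.1, and circles near 20 reads carry wide errors.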
